A study of Mus musculus with 12 samples.

Results

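The doxorubicin response of primary mouse embryonic fibroblasts that lack the long noncoding RNA lincRNA-p21 was measured by RNA sequencing in 6 of the 12 libraries of the study. These were the 3 libraries of mock-treated knockout cells (KO mock, lincRNA-p21-/-) and the 3 of knockout cells given doxorubicin (KO dox), chosen by their labels and paired by the replicate number. The other 6 libraries, wild-type cells (WT, lincRNA-p21+/+) with the same treatments, served to ask where the knockout response differed. All cells were on a hybrid 129/B6 background and grown as primary cultures. The labels give the dose as 0.5 mM for 24 hours, a unit that is in doubt because doxorubicin is usually given to cells at micromolar doses. How the allele was deleted, the age of the embryos and whether cells of several embryos were pooled are not given in the sources used here. The labels number the replicates 1 to 3 without saying whether a number stands for an embryo, a culture or a day, so p-values measure only the spread between these samples, which may be technical.

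Doxorubicin is an anthracycline that traps topoisomerase II on DNA and thereby leaves double-strand breaks. The breaks activate the kinases ATM and ATR, which stabilise p53, a transcription factor. p53 switches on genes of cell cycle arrest, apoptosis, DNA repair and its own control, among them Cdkn1a, the gene of p21, a brake on cyclin-dependent kinases. p21 keeps RB-family proteins active, and these hold E2F-driven replication genes and, within the DREAM complex, late cell cycle genes in a repressed state. LincRNA-p21 is transcribed next to Cdkn1a and is itself a p53 target, and the title of the series places it in the control of that gene, of Polycomb targets and of the step from G1 to S phase.

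Values were in CPM, the reads of a gene scaled to the depth of its library, in separate tables for mock and doxorubicin. Library totals ran from 15705627 to 19794115 reads in KO mock and from 15627903 to 20292279 in KO dox. A total of 10292 genes were in both tables, 356 in the mock table alone and 833 in that of doxorubicin alone. No WT library had a listed gene at or under 2 CPM, whereas 164 of the genes in both tables had such a KO library, so the listing followed WT levels. Tested genes that RefSeq places on chromosome X numbered 22, with 0 on Y. The deleted RNA was not analysed here and so gave no check of the genotypes. Of 16 fibroblast markers, 15 were measured in both tables, with Pdgfra, Thy1, Vim and Col1a1 among them. Their summed level was 47695 to 59550 CPM in KO mock and 30208 to 38319 CPM in KO dox. Of 13 blood cell markers only Cd68 was in both tables, and of 14 epithelial markers 3 were.

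Doxorubicin moved the levels of about as many genes as it left without a call. Of 10290 genes tested (a mean of at least 1 CPM over the 6 libraries), 5237 passed an adjusted p of 0.05, which was 50.9% of them, in limma's paired test on log2(CPM + 1); 5949 had an unadjusted p under 0.05. Of these, 2859 (27.8% of the tested) were higher after doxorubicin and 2378 (23.1%) lower. By size, 713 called genes rose by more than 1 on the log2 scale and 518 fell by more than 1. The median gene moved by 0.035, and the 3 KO dox libraries lay wholly above or wholly below the 3 KO mock libraries for 48.6% of genes. Deviations from the group mean, over genes, went together in libraries that shared a number (r = 0.428, 0.728 and 0.631 for numbers 1, 2 and 3). Pairs were compared for this reason. For differing numbers r was -0.0566 or less. Deviations within a group cancel for each gene, so positive values for shared numbers bring negative ones for differing numbers. Without the pair term 3191 genes were called (1830 higher, 1361 lower), and without replicate 2 3052 were (1688 higher, 1364 lower). The balance of directions also followed the scaling: 54.6% of calls were higher here, 48.4% after quantile normalization and 44.7% after median centring. Where a list's counts move by over 1.5 times under another setting, the rises and falls under that setting follow. Differences below are log2(CPM + 1) in KO dox minus KO mock, a scale that understates the change of low genes.

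**Figure D1:**
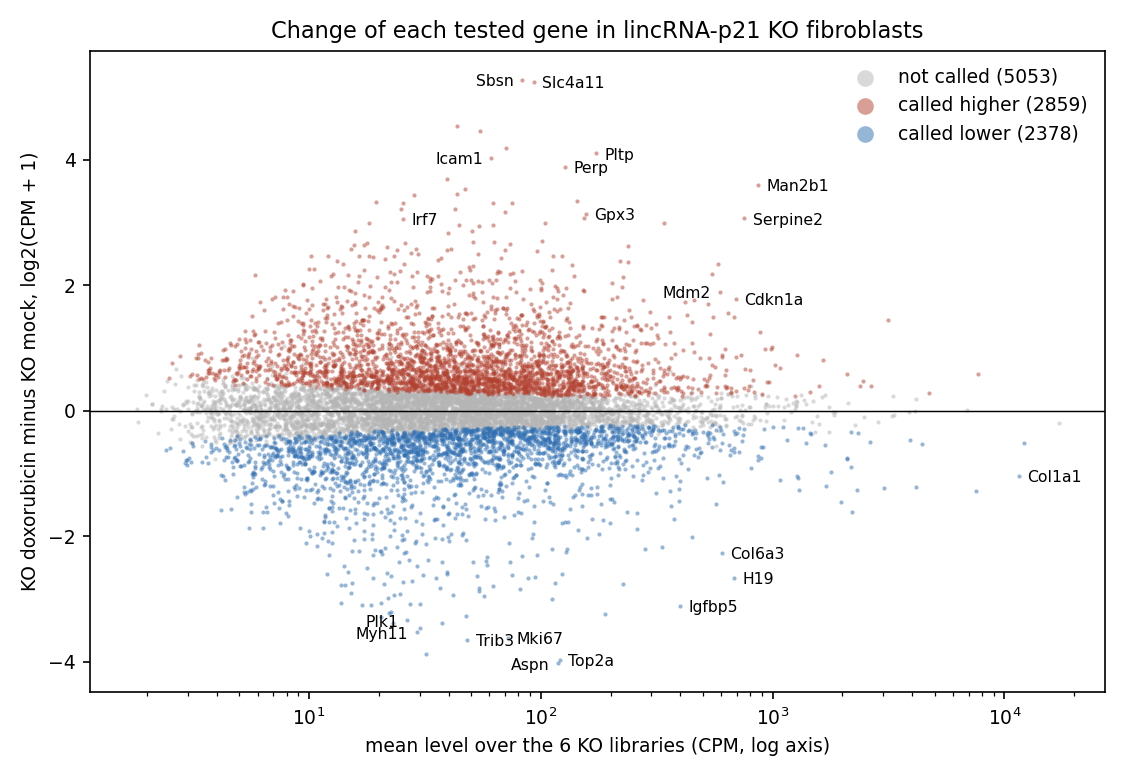
Change of each of the 10290 tested genes in KO cells (vertical axis, KO dox minus KO mock, log2(CPM + 1)) against its mean level over the 6 KO libraries (horizontal axis, CPM, log scale). Red points are the 2859 genes called higher, blue points the 2378 called lower and grey points the genes not called; Sbsn and Slc4a11 lie at the top and Aspn and Top2a at the bottom.

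p53 and most of its feedback regulators were higher after doxorubicin. Of 9 genes of this list that were tested, 6 rose and 1 fell, with a median of 0.61 against 0.035 over all genes. Trp53, which encodes p53, was at 144, 164 and 120.1 CPM in mock libraries 1, 2 and 3 and at 171, 242 and 246 CPM after doxorubicin. The KO dox libraries all lay above the KO mock libraries, with library 1 showing the smallest step, and the difference was 0.61 (SE 0.14, limma adjusted p = 0.0106). Without replicate 2 Trp53 was not called (adjusted p = 0.0617). Mdm2, the ubiquitin ligase that degrades p53 and is switched on by it, went from 253, 284 and 217 CPM to 925, 932 and 928 CPM. Its 3 treated values were nearly equal and far above the mock values, a difference of 1.89 (SE 0.10, limma adjusted p = 2.65e-05). Ccng1 (cyclin G1, a p53 target that acts on Mdm2) rose by 0.90 (SE 0.10), Trp53inp1 (a p53-induced nuclear protein) by 1.39 (SE 0.12) and Ppm1d (the phosphatase WIP1, which turns damage signals off) by 1.14 (SE 0.17). The member that fell was Cop1, another ligase for p53, at -0.35, a call that was lost without replicate 2 (adjusted p = 0.0972).

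Among p53 targets of cell cycle arrest, 6 of 9 rose and none fell, with a median of 1.13. Cdkn1a was at 304, 283 and 357 CPM in KO mock and 1059, 1072 and 1102 CPM in KO dox. The treated libraries were nearly equal and all stood above the mock libraries, and the difference was 1.78 (SE 0.09, limma adjusted p = 2.57e-05). Rprm, the p53 target Reprimo that holds cells in G2, went from 3.63, 3.38 and 5.07 CPM to 23.2, 30.7 and 38.1 CPM without overlap (2.64). Sfn, the 14-3-3 sigma protein that keeps CDK1 in the cytoplasm, differed between numbers more than between treatments: it was at 25.1, 66.8 and 12.6 CPM in mock and 74.7, 183 and 51.1 CPM after doxorubicin. The groups overlapped, each pair rose, and the call at 1.64 was lost without the pair term (adjusted p = 0.0942). Pml, the organiser of nuclear bodies that hold p53, rose by 1.31. Gadd45a, a stress gene often used as a p53 readout, was at 52.6, 30.2 and 45.1 CPM in mock and 33.8, 38.9 and 33.1 CPM after doxorubicin and was not called (-0.23, SE 0.19, limma adjusted p = 0.323).

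The p53 targets of apoptosis were higher in 11 of 14 cases, with none lower and a median of 0.80. Perp, a membrane protein of desmosomes and apoptosis, was at 12.2, 11.8 and 21.8 CPM in KO mock and 152, 298 and 267 CPM in KO dox, the largest change of the list at 3.88 (SE 0.20, limma adjusted p = 2.63e-05). Every treated library was above every mock library, with library 1 the lowest of the treated. Fas, the death receptor, rose from 10.3, 7.17 and 21.3 CPM to 49.9, 40.6 and 70.9 CPM (2.07). Pmaip1, which encodes the BH3-only protein NOXA, rose by 1.73, and Pidd1, the scaffold of the caspase-2 complex, by 1.73. The BCL2-family effector Bax moved less: 203, 183 and 183 CPM in mock and 274, 294 and 262 CPM after doxorubicin, without overlap and a difference of 0.55 (SE 0.09, limma adjusted p = 0.00217). Bbc3, which encodes PUMA, was at 25.2, 16.5 and 28.3 CPM and 28.99, 24.7 and 26.2 CPM, values that overlapped, and was not called at 0.21 (SE 0.15, limma adjusted p = 0.258).

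The 2 promoters shown here are those of Cdkn1a, at the centre of the series, and Bax, a second p53 target that rose; capitals mark each match to the p53 decamer, the 10-letter unit of a p53 response element. Sequences are from RefSeq (GRCm38.p6), 5′ to 3′ on the gene's strand, from 250 bases before to 50 after the annotated start. The windows, each shown because it held a match, are chr17:29090729-29091028, plus strand (Cdkn1a) and chr7:45466849-45467148, minus strand (Bax).
Cdkn1a promoter: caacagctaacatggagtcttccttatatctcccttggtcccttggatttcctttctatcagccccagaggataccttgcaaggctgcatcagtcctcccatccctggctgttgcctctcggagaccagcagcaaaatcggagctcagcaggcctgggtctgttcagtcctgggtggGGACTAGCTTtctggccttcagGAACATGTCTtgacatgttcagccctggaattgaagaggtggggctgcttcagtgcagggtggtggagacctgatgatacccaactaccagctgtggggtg
Bax promoter: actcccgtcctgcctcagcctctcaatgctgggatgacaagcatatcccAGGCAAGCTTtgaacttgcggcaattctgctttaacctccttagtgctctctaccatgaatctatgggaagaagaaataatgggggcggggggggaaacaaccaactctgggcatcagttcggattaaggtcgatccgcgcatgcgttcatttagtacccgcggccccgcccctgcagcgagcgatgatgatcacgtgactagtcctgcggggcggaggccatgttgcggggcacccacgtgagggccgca
Both strands were searched in the 10439 windows of 8091 tested genes, since a gene could have more than 1. A gene was counted if any of its windows held a match. Windows without a match are not shown here or below. A decamer was found in 8.11% of those genes, and in 5 of 8 p53 regulators, 3 of 8 arrest targets and 4 of 11 apoptosis targets. Among genes called higher by more than 1 it was found in 11.7%, against 7.78% of genes not called. A match in such a window is a run of letters and no measured binding.

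Among p53 targets of signalling and other roles, 20 of 20 rose and none fell (median 1.07). Pltp, the phospholipid transfer protein, went from 18.8, 6.16 and 45.3 CPM to 314, 268 and 389 CPM, a difference of 4.10 (SE 0.34, limma adjusted p = 0.000135) in which mock levels varied several-fold between numbers and treated levels did not. Dcxr (a carbonyl reductase) rose by 2.54, Fuca1 (lysosomal fucosidase) by 2.39 and Crip2 (a LIM-domain protein) by 2.37. Gdf15, a secreted stress cytokine, was at 5.28, 9.85 and 3.89 CPM in mock and 17.1, 12.1 and 9.46 CPM after doxorubicin. Its groups overlapped, and the call at 0.96 was lost without the pair term (adjusted p = 0.0642) and without replicate 1 (adjusted p = 0.0531). Of 16 targets of repair and metabolism, 12 rose and 2 fell (median 0.76). Dgka (diacylglycerol kinase) rose by 2.21, Aldh4a1 (proline catabolism) by 1.92, Lpin1 (lipid signalling) by 1.84 and Ercc5 (the XPG endonuclease of nucleotide excision repair) by 1.53. Those that fell were Pank1 (-0.61), which makes coenzyme A, and Polh (-0.55), a polymerase that copies past DNA lesions. Both calls were lost without replicate 2 (adjusted p = 0.0919 and 0.052), that of Pank1 also without replicate 1 (adjusted p = 0.0778) and without the pair term (adjusted p = 0.158).

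**Figure D2:**
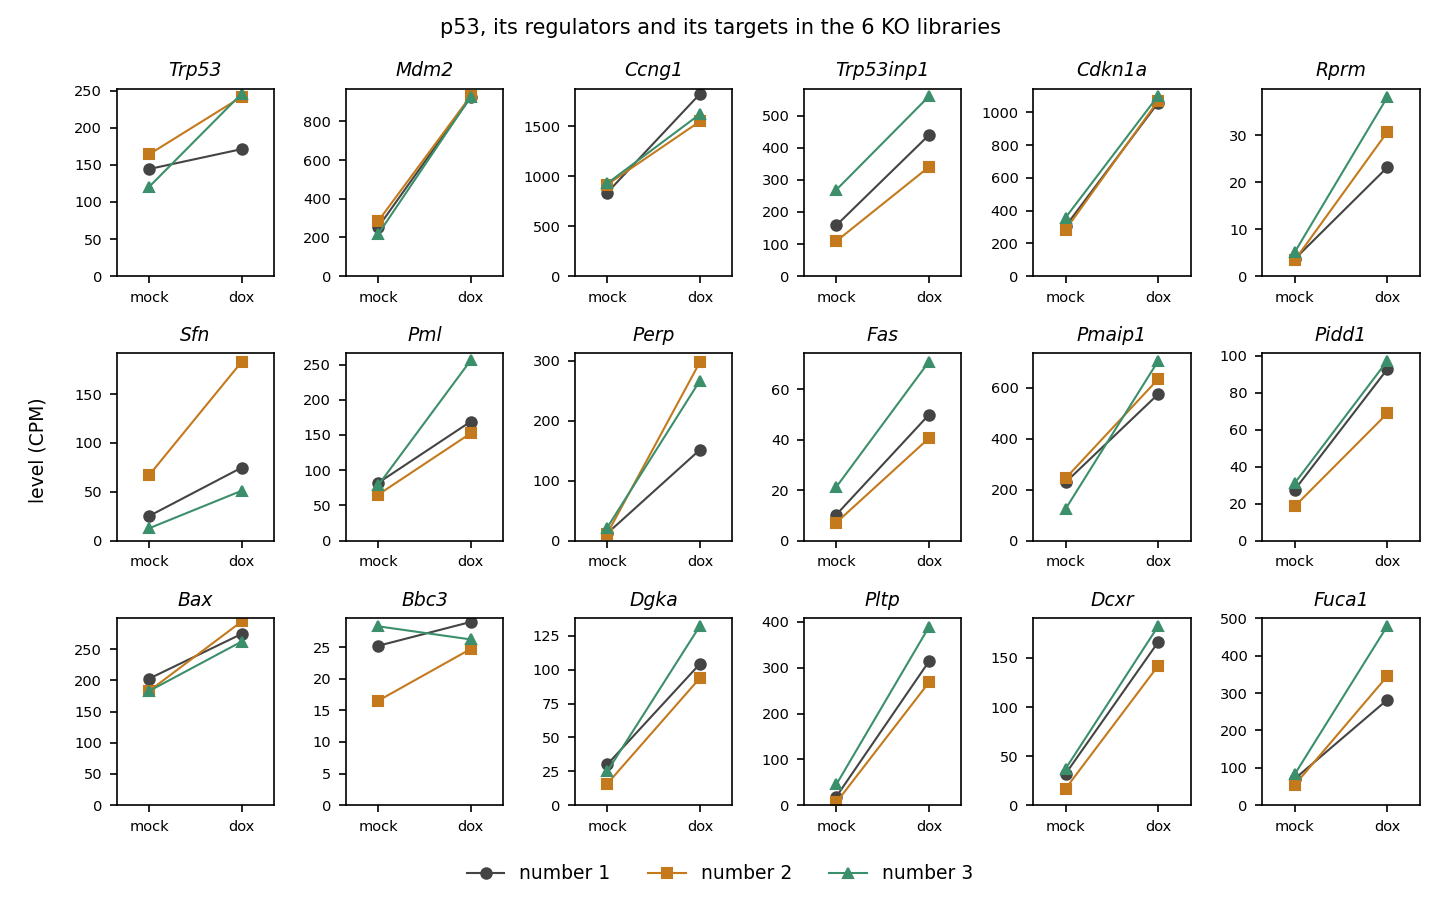
Level (vertical axes, CPM, from 0) of 18 p53 regulators and targets in KO mock and KO dox libraries, 1 panel per gene, with lines joining libraries of the same number. Mdm2 and Cdkn1a show 3 nearly equal treated values far above mock, Sfn shows a spread between numbers as wide as its response, and Bbc3 shows overlapping groups.

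Late cell cycle genes fell together. Of 73 G2/M genes tested, 63 fell and 4 rose, with a median of -2.23, and 26 further members were in the mock table alone. Because a bulk library pools all cells, fewer dividing cells and less of these RNAs per cell cannot be told apart. Top2a, the topoisomerase II of dividing cells and a target of doxorubicin, was at 188, 310.0 and 184 CPM in KO mock and 21.8, 16.1 and 6.26 CPM in KO dox. All treated libraries were below all mock libraries, number 2 being the highest in mock, and the difference was -3.97 (SE 0.27, limma adjusted p = 6.31e-05). Mki67, the proliferation marker Ki-67, went from 106, 172 and 123 CPM to 6.72, 18.99 and 7.15 CPM (-3.61), and Ube2c, a ubiquitin-conjugating enzyme of the anaphase-promoting complex, from 50.3, 78.05 and 39.5 CPM to 4.48, 7 and 1.82 CPM (-3.46). The mitotic kinase gene Plk1 went from 41.8, 65.7 and 37.7 CPM to 2.05, 8 and 2.91 CPM without overlap (-3.34, SE 0.18, limma adjusted p = 3.06e-05). Ccnb1 (cyclin B1) fell from 51.5, 68.5 and 37.5 CPM to 7.17, 14.9 and 12.1 CPM (-2.12), and Cdk1, its kinase partner, fell by 2.82 (SE 0.13).

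The 4 members that rose were Ckap2, Gtse1, Psrc1 and Zwint, named after their values were seen. Ckap2, a microtubule-stabilising spindle protein, was at 46.9, 59.4 and 54.5 CPM in mock and 98.3, 76.2 and 181 CPM after doxorubicin, a difference of 1.04 (SE 0.22, limma adjusted p = 0.00731). Gtse1, a microtubule protein that also exports p53 from the nucleus, went from 70.2, 86.9 and 69.1 CPM to 142, 132 and 178 CPM (0.99), Psrc1, a spindle protein on the p53 target list as well, from 109, 76.2 and 123 CPM to 189.5, 147 and 212 CPM (0.84), and Zwint, a kinetochore protein, from 192, 213 and 149 CPM to 272, 331 and 278 CPM (0.68). For each of them every treated library lay above every mock library, opposite to the list as a whole.

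The promoters of Plk1 and Cdc20, which fell, and of Gtse1, which rose, are shown to compare the letters that late cell cycle genes share. In Plk1 and Cdc20 the capitals mark the CHR (TTTGAA or TTCGAA), to which the MuvB core of DREAM binds, and the CCAAT box of the factor NF-Y. In Gtse1 they mark only a p53 decamer. No CHR was found in its window, which does hold a CCAAT box near its start, left in lower case. The windows are chr7:122159185-122159484, plus strand (Plk1), chr4:118437294-118437593, minus strand (Cdc20) and chr15:85859696-85859995, plus strand (Gtse1).
Plk1 promoter: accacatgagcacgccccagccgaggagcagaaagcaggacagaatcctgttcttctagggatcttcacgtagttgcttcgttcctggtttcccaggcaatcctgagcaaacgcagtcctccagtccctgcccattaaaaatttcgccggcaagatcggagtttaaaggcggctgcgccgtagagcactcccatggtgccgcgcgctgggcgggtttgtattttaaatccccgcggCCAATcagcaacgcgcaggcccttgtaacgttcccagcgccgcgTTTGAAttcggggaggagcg
Cdc20 promoter: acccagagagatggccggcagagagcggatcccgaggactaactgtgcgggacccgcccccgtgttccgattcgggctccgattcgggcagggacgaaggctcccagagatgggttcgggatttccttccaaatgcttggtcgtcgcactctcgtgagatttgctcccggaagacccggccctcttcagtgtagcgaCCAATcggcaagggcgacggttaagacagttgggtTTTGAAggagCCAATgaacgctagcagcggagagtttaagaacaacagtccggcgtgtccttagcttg
Gtse1 promoter: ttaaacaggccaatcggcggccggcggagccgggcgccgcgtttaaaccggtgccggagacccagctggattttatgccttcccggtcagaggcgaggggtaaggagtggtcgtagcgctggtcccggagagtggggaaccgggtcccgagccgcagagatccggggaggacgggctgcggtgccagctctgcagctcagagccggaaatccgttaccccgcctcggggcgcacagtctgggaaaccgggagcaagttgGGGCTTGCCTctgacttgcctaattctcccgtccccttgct
Cdc20, the activator of the anaphase-promoting complex, was at 54.5, 89.9 and 53.6 CPM in mock and 10.8, 19.1 and 18.7 CPM after doxorubicin (-1.96), so treated and mock libraries did not overlap. Of 64 G2/M genes with a window, 47 held a CHR (73.4%), against 15.6% of all tested genes, and 60.9% held a CHR and a CCAAT box, against 7.72%. Split by response, 40 of 54 members that fell and 2 of the 4 that rose (Psrc1 and Ckap2) held a CHR. A p53 decamer was found in 6 of the 54 and in 2 of the 4 (Gtse1 and Ckap2). These are counts of letters in windows, with no test.

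Genes of S-phase entry and DNA replication fell in 47 of 57 cases and rose in 2, with a median of -1.11, and 12 more were in the mock table alone. Mcm5 and Mcm2, subunits of the replicative helicase, went from 54.2, 77.3 and 32.5 CPM to 6.21, 6.42 and 3.5 CPM (-3.08, SE 0.14, limma adjusted p = 2.05e-05) and from 84.9, 95.2 and 52.9 CPM to 19.8, 18.1 and 14.7 CPM (-2.05). Treated and mock libraries were apart for both, and mock library 3 was the lowest of its group for each. Atad2, an E2F-induced chromatin factor, fell by 2.93 and Uhrf1, which carries DNA methylation through replication, by 2.82. The 2 members that rose were Msh6, a mismatch repair gene, from 45.97, 53.5 and 47.7 CPM to 123, 127 and 192 CPM (1.54), and Dnajc9, a histone chaperone, from 29.2, 46.9 and 28.8 CPM to 63.1, 83.8 and 85.5 CPM (1.15).

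Uhrf1 and Mcm3 are shown for the E2F site (TTTGGCGC, TTTCCCGC, TTTGCCGC or TTTCGCGC), marked in capitals; their windows are chr17:56304063-56304362, plus strand and chr1:20820263-20820562, minus strand.
Uhrf1 promoter: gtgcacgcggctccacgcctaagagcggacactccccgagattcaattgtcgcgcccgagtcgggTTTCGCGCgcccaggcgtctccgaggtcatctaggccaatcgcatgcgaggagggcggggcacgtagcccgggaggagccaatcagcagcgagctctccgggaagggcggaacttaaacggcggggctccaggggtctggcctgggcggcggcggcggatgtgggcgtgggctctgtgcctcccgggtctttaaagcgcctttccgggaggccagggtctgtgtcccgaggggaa
Mcm3 promoter: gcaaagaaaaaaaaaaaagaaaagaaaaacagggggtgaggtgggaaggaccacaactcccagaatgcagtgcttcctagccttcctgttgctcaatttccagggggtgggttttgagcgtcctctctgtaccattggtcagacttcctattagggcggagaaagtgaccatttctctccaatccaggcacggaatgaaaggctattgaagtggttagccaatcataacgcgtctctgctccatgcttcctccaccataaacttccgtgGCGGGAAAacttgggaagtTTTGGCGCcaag
Mcm3, another helicase subunit, was at 62.8, 88.9 and 53.6 CPM in mock and 10.7, 11.9 and 8.87 CPM after doxorubicin, and fell by 2.57. The E2F site was found in 17 of 46 replication genes with a window (37.0%) and in 4.91% of all tested genes.

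The factors that drive these programmes changed less evenly. Of 14 E2F, MuvB and mitotic activator genes, 9 fell and none rose (median -0.41), the falls being 5 without replicate 2. The share called was 64.3%, against 50.9% of all genes. Mybl2 (B-MYB) went from 21.3, 37.7 and 15.4 CPM to 2.18, 4.84 and 3.45 CPM (-2.48) and Foxm1 from 53.4, 84.01 and 45.05 CPM to 13.9, 18.6 and 9.31 CPM (-2.05), both without overlap. The MuvB subunits Lin9 and Lin54 fell by 1.07 and 1.06. Among cyclins and their kinases 9 of 12 fell, with Ccna2 (cyclin A2) at -2.87 and Ccne1 (cyclin E1) at -2.00. The member that rose was Ccnd1, cyclin D1 of early G1, from 275, 358 and 332 CPM to 751, 713 and 793 CPM (1.23, SE 0.10, limma adjusted p = 0.00015).

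CDK inhibitors and RB-family genes went both ways, with 5 of 9 higher and 3 lower. Rb1 itself rose from 34.3, 35.2 and 29.4 CPM to 103, 101 and 109.7 CPM (1.64, SE 0.11, limma adjusted p = 6.08e-05), a set of values in which treated libraries were close together and about equally far above mock. Rbl2 (p130, the DREAM member of resting cells) rose by 1.04, while Rbl1 (p107, itself an E2F target) fell by 1.03. Cdkn1c (p57) rose from 25.7, 17.6 and 9.81 CPM to 38.5, 66.97 and 45.5 CPM (1.51), and Cdkn1b (p27) fell from 43.9, 35.9 and 38.5 CPM to 26.5, 22.5 and 14.4 CPM (-0.90). Cdkn2a, the locus of p16 and ARF, was at 112, 83.9 and 227 CPM in mock and 160.2, 97.1 and 229 CPM after doxorubicin and was not called at 0.24 (SE 0.11, limma adjusted p = 0.107). Its spread between numbers was larger than its change in any pair.

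Chromatin proteins linked to division and to the nuclear lamina were lower in 17 of 22 cases and higher in 4 (median -0.98). Rises and falls were 1 and 15 without the pair term and 2 and 16 without replicate 3. Lmnb1, lamin B1, whose loss is a known mark of senescent cells, went from 64.6, 86.8 and 46.5 CPM to 20.4, 31.6 and 11.8 CPM (-1.65, SE 0.12, limma adjusted p = 9.04e-05). The groups did not overlap, and number 2 was highest in each. Hmgn2 (a nucleosome-binding protein) fell by 1.72, Hells (a remodeller needed for DNA methylation) by 2.38, Dnmt1 (the maintenance DNA methyltransferase) by 1.39 and Hmgb2 by 1.29. Hmga1, an architectural factor, rose by 0.70, a call lost without the pair term (adjusted p = 0.284).

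The genes that sense and repair DNA damage differed by list. Of 22 damage signalling genes, 13 fell and 1 rose (median -0.39). Rises and falls numbered 0 and 12 in a fit of all 12 libraries, 0 and 8 without the pair term, 0 and 8 without replicate 2 and 0 and 13 without replicate 3. Clspn (claspin, the adaptor of ATR and CHK1) went from 22.4, 33.5 and 19.4 CPM to 2.05, 4 and 0.838 CPM (-3.07) and Chek1, the kinase it serves, from 9.49, 14.5 and 10.7 CPM to 3.14, 2.84 and 3.7 CPM (-1.56), and neither overlapped. Parp1 fell by 1.27 and Topbp1, an activator of ATR, by 1.22. Of 16 homologous recombination and Fanconi genes 6 fell, among them Brca1 (-2.03) and Blm (-1.91), 2 rose, Mus81 (a structure-specific nuclease, 0.69) and Rad52, and 13 more were in the mock table alone; rises and falls were 2 and 3 for genes of at least 10 CPM and 1 and 5 without replicate 2. In excision and mismatch repair 6 of 26 rose and 7 fell, or 6 and 4 for genes of at least 10 CPM, 6 and 3 without the pair term, 6 and 3 without replicate 1, 3 and 1 without replicate 2 and 6 and 4 without replicate 3. Of 9 end joining genes 2 rose and none fell (median 0.12), or 1 and 0 for genes of at least 10 CPM, 2 and 3 after median centring, 1 and 0 without the pair term, 2 and 1 after quantile normalization, 1 and 0 without replicate 1 and 0 and 0 without replicate 2. The share called in the damage signalling list was 63.6%. In the recombination list and in the excision list it was close to the 50.9% of all genes. In the end joining list it was 22.2%. Ercc1, the partner of the XPF nuclease, rose from 52.02, 63.2 and 30.5 CPM to 92.3, 148 and 91.2 CPM (1.19).

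**Figure D3:**
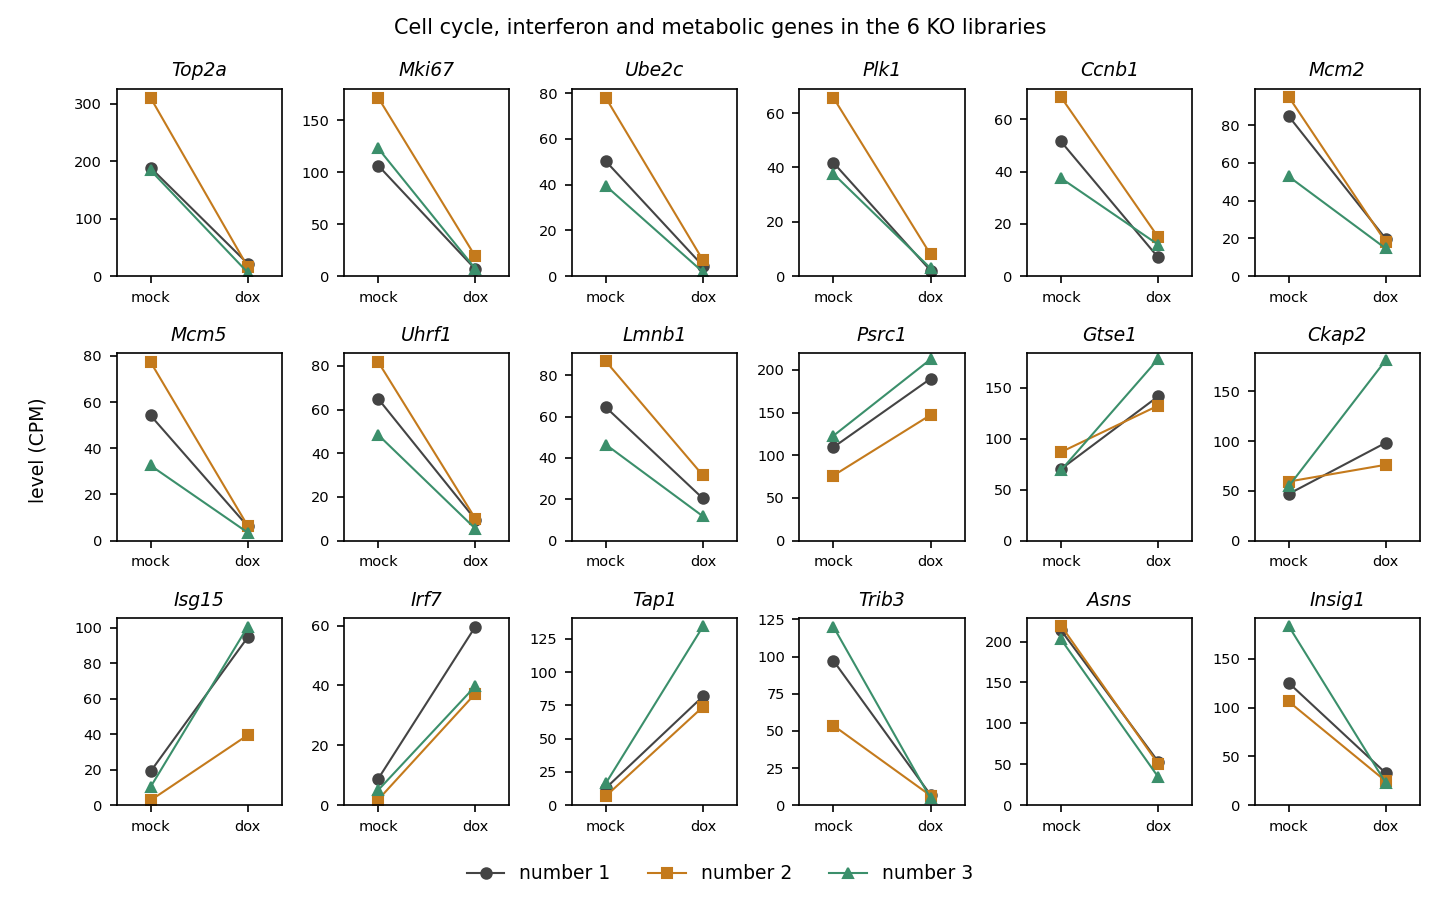
Level (vertical axes, CPM, from 0) of 18 cell cycle, interferon and metabolic genes in KO mock and KO dox libraries, 1 panel per gene, with lines joining libraries of the same number. Top2a to Lmnb1 fall in every pair, Psrc1, Gtse1 and Ckap2 rise in every pair, Isg15, Irf7 and Tap1 rise from low mock levels, and Trib3, Asns and Insig1 fall.

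Interferon-stimulated and antigen presentation genes rose almost throughout: 25 of 27 rose and 1 fell, with a median of 1.53, and 10 more were listed in the doxorubicin table alone. These genes answer type I interferon and cytosolic nucleic acid through IRF and related factors. Irf7, the interferon regulatory factor that amplifies the response, was at 8.79, 1.82 and 5.02 CPM in mock and 59.6, 37.3 and 39.8 CPM after doxorubicin. The mock values spread more, in proportion, than the treated ones, the groups were apart, and the difference was 3.05 (SE 0.22, limma adjusted p = 8.33e-05). Isg15, a ubiquitin-like modifier, went from 18.97, 2.73 and 10.3 CPM to 94.5, 39.5 and 100.5 CPM (2.96). Number 2 was the lowest in both groups for Irf7 and for Isg15. Tap1, a peptide transporter of MHC class I loading, went from 12.8, 6.77 and 16.4 CPM to 81.8, 73.9 and 134 CPM (2.94, SE 0.14, limma adjusted p = 2.33e-05), and Xaf1, a pro-apoptotic interferon target, rose by 2.58. The member that fell was Irf1, from 23.5, 21.2 and 24.8 CPM to 16.4, 14.1 and 14.8 CPM (-0.59), and Ifit2, at 24.5, 20.6 and 21.2 CPM and 36.5, 20.6 and 21.8 CPM, was not called (0.20, SE 0.14, limma adjusted p = 0.283). Of the 10 genes in the doxorubicin table alone, Usp18, which removes ISG15 from proteins, was at 61.2, 39.7 and 86.3 CPM and Rtp4 at 27.4, 15.3 and 17.5 CPM.

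The promoters of Isg15 and Ifit1 show the element these genes share, the ISRE (searched as 2 runs of GAAA with any 2 bases between them), in capitals; overlapping matches run together. The windows are chr4:156200769-156201068, minus strand and chr19:34640639-34640938, plus strand.
Isg15 promoter: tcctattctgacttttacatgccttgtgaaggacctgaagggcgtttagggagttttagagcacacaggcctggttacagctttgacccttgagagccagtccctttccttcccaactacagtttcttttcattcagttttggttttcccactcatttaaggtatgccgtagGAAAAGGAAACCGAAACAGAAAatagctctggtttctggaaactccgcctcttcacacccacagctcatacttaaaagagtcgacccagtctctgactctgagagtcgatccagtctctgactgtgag
Ifit1 promoter: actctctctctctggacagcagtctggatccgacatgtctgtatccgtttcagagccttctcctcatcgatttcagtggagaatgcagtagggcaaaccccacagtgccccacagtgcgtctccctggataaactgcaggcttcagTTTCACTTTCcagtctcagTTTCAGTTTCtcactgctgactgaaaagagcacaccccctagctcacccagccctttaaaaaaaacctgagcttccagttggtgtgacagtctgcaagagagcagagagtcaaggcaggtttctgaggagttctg
Ifit1, an RNA-binding antiviral protein, was at 9.61, 2.22 and 6.82 CPM in mock and 28.99, 10.2 and 29.7 CPM after doxorubicin (1.75). The element was found in 11 of 22 members of the list with a window and in 3.47% of all tested genes.

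Immediate-early genes, whose products such as the AP-1 factors respond to signals within minutes, were higher in 19 of 29 cases and lower in 2 (median 0.76), or 13 and 1 without the pair term and 17 and 1 without replicate 2. Fos went from 9.61, 5.66 and 10.9 CPM to 29.3, 31.98 and 44.8 CPM (1.92, SE 0.17, limma adjusted p = 0.000167), Fosl1 from 29.5, 46.7 and 18.7 CPM to 74.9, 144 and 111 CPM (1.81) and Egr1 from 173, 126 and 80.5 CPM to 339.6, 269 and 316 CPM (1.34). No treated library of these 3 genes fell within the mock range. Myc, by contrast, fell by 0.50, a call lost without the pair term (adjusted p = 0.248) and without replicate 2 (adjusted p = 0.0518).

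Inflammatory genes showed no common direction. Calls were made for 61.5% of the cytokine list and 42.9% of the NF-kB list, against 50.9% of all genes (27.8% higher, 23.1% lower). Of 13 cytokines and chemokines 5 rose and 3 fell, or 4 and 1 without the pair term, 3 and 3 without replicate 1 and 3 and 3 without replicate 2. Il6 was at 2.48, 2.17 and 4 CPM in mock and 6.4, 5.79 and 4.83 CPM after doxorubicin, low in every library, and its call at 0.80 (SE 0.21, limma adjusted p = 0.0171) was lost without replicate 1 (adjusted p = 0.0805) and without replicate 2 (adjusted p = 0.125). Lif, a cytokine of the same family, rose from 62.1, 81.03 and 21.1 CPM to 179, 321 and 171 CPM (2.15, SE 0.24, limma adjusted p = 0.000478). Cxcl12, the stromal chemokine that binds CXCR4, fell from 341, 291 and 783 CPM to 106, 98.8 and 75.3 CPM (-2.19), so that the treated values were nearer to each other than the mock values. Among 14 NF-kB feedback and subunit genes 4 rose and 2 fell, or 3 and 1 in a fit of all 12 libraries, 2 and 2 after median centring, 2 and 0 without the pair term, 2 and 2 after quantile normalization, 4 and 1 without replicate 1, 2 and 0 without replicate 2 and 3 and 1 without replicate 3. Tnfaip3 (A20, an inhibitor of the pathway) went from 15.7, 39.7 and 13.7 CPM to 90.8, 167 and 60.1 CPM (2.19), whereas Nfkbia (IkB alpha) was not called at 0.31 (adjusted p = 0.0612, limma).

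Genes of amino acid supply fell as a group: 21 of 24 fell and none rose (median -1.02). These genes are switched on by ATF4 when amino acids are short or proteins misfold. Trib3, a pseudokinase target of ATF4, went from 97.3, 53.6 and 120.2 CPM to 6.91, 6.42 and 4.58 CPM (-3.65, SE 0.26, limma adjusted p = 7.81e-05), and Asns (asparagine synthetase) from 214, 219.5 and 203 CPM to 53.3, 50.5 and 34.5 CPM (-2.20, SE 0.12, limma adjusted p = 3.06e-05). The treated libraries of both lay well below mock, and the mock values of Asns were close together. Mthfd2 and Shmt2, mitochondrial enzymes of the folate cycle, fell by 2.65 and 1.77, and Atf4 itself by 1.03. The members not called were Ddit3 (CHOP, -0.48, adjusted p = 0.0903), Slc3a2 (-0.21, adjusted p = 0.101) and Ddit4 (-0.07, adjusted p = 0.531, limma). The promoter of Chac1, a glutathione-degrading ATF4 target that fell, is shown with the core of the amino acid response element (TTGCATCA) in capitals (chr2:119350992-119351291, plus strand).
Chac1 promoter: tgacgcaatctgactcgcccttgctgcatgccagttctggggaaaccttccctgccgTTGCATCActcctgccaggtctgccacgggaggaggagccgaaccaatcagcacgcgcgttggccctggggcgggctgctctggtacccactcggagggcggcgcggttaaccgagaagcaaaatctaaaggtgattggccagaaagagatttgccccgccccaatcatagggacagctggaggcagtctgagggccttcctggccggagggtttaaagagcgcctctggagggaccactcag
Chac1 was at 40.5, 32.4 and 28.02 CPM in mock and 11.5, 22.6 and 15.5 CPM after doxorubicin (-1.02). The element was found in 5 of 21 members with a window and in 0.655% of all tested genes.

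Sterol and fatty acid synthesis genes, the targets of SREBP factors, were lower in 24 of 27 cases and higher in 1 (median -1.32). Insig1, the sterol sensor that retains SREBP in the endoplasmic reticulum, went from 126, 106 and 184 CPM to 32.9, 24.6 and 22.9 CPM (-2.31, SE 0.19, limma adjusted p = 0.000144). Cyp51 (lanosterol demethylase) fell by 2.25 and Fdps (farnesyl diphosphate synthase) by 2.10. Acss2, which makes acetyl-CoA from acetate, rose from 9.87, 5.76 and 15.9 CPM to 17.5, 18.7 and 37.5 CPM (1.16), a call that was not made without the pair term (adjusted p = 0.0622). Hsd17b7, another enzyme of the sterol path, was not called (-0.43, limma adjusted p = 0.0791).

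Matrix genes, the main secretory output of fibroblasts, were lower in 29 of 43 cases and higher in 5 (median -0.75). Rises and falls were 3 and 30 after median centring, 3 and 15 without the pair term, 3 and 28 after quantile normalization and 3 and 30 without replicate 1. Col6a3, a chain of collagen VI, went from 681, 652 and 1692 CPM to 164, 133 and 307 CPM (-2.27, SE 0.10, limma adjusted p = 1.87e-05) and Col1a2, a chain of collagen I, from 11248, 8681 and 11798 CPM to 5601, 3123 and 4583 CPM (-1.28, SE 0.12, limma adjusted p = 0.000241), without overlap. Postn (periostin) went from 3345, 1554 and 4911 CPM to 1204, 434 and 1697 CPM (-1.61). Mock library 2 lay below treated library 3, so the groups overlapped, and it was not called without the pair term (adjusted p = 0.072). Col18a1, whose product carries endostatin, rose by 1.55. Of 15 fibroblast markers 11 fell, 1 rose and 3 were not called; without the pair term 5 fell. Pdgfrb, a receptor for platelet-derived growth factor, went from 532, 439 and 654 CPM to 157, 78.4 and 135 CPM (-2.16). Twist1 rose by 0.69 (adjusted p = 0.0676 without the pair term), and Vim (vimentin) was at 3564, 4449 and 3683 CPM and 4063, 4853 and 4312 CPM and not called (0.18, limma adjusted p = 0.138), though it was after quantile normalization at 0.37 (adjusted p = 0.0144).

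Contractile genes were lower in 13 of 19 cases (median -0.66). Myh11, smooth muscle myosin, went from 48.1, 71.4 and 44.2 CPM to 3.52, 4.37 and 3.3 CPM (-3.53, SE 0.13, limma adjusted p = 1.74e-05), and Acta2, smooth muscle actin, from 5813, 6672 and 4773 CPM to 2827, 2924 and 1795 CPM (-1.21, SE 0.10, limma adjusted p = 0.000167). Treated and mock libraries of both genes were apart. Actg2 fell by 1.89 and Mylk, the kinase of myosin light chain, by 1.54. The intermediate filament gene Des rose by 1.07, a call lost without the pair term (adjusted p = 0.0562) and without replicate 2 (adjusted p = 0.0658).

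Signalling ligands and receptors included some of the larger rises. Calls covered 80.6% of the growth factor list, 64.5% of TGF-beta and BMP genes and 58.6% of Wnt and Notch genes, against 50.9% of all genes. Among 31 growth factor and receptor kinase genes 15 rose and 10 fell, or 9 and 5 without the pair term. Ereg (epiregulin, an EGF receptor ligand) went from 21.8, 29.4 and 15.7 CPM to 71.3, 135 and 118 CPM (2.22) and Epha2 (an ephrin receptor and p53 target) from 83.7, 133 and 41.7 CPM to 255, 556 and 283 CPM (2.13), each without overlap. In the TGF-beta and BMP pathway 13 of 31 rose and 7 fell, or 8 and 9 after median centring, 4 and 2 without the pair term and 10 and 3 without replicate 2. Fst (follistatin, an activin trap) rose by 2.46 (SE 0.13), and the BMP targets Id2 and Id1 by 2.21 and 2.06. In Wnt and Notch signalling 11 of 29 rose and 6 fell, or 7 and 4 without the pair term, with the ligand Wnt4 going from 2.16, 0.96 and 8.01 CPM to 19.3, 24.1 and 54.2 CPM (2.99) and the receptor Notch3 from 43.04, 15.5 and 69.6 CPM to 169.8, 126 and 245 CPM (2.23). Among secreted proteases, inhibitors and IGF binding proteins, Serpine2 (protease nexin) rose from 199, 127 and 162 CPM to 1357, 1339 and 1347 CPM (3.06, SE 0.12, limma adjusted p = 1.87e-05), and Igfbp5 fell from 884, 475 and 799 CPM to 76.7, 74.1 and 89.8 CPM (-3.10, SE 0.15, limma adjusted p = 2.22e-05). The 3 treated values of Serpine2 and of Igfbp5 were each nearly equal.

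Genes of the lysosome and autophagy rose in 24 of 38 cases and fell in 5 (median 0.38), or 24 and 2 in a fit of all 12 libraries, 15 and 1 without the pair term, 14 and 2 without replicate 2 and 23 and 2 without replicate 3. Ctsd (cathepsin D) went from 2037, 1360 and 1743 CPM to 4721, 4493 and 4548 CPM (1.44, SE 0.12, limma adjusted p = 0.000128), and Ulk1, the kinase that starts autophagy, rose by 1.33. Npc1, a cholesterol exporter of the lysosome, fell by 0.78. Of 28 oxidative stress genes 15 rose and 3 fell, or 10 and 0 without the pair term and 14 and 1 without replicate 1. Calls covered 76.3% of the lysosome and autophagy list and 64.3% of the oxidative stress list, against 50.9% of all genes. Gpx3, a secreted glutathione peroxidase, went from 42.1, 29.1 and 24.1 CPM to 307, 226 and 311 CPM (3.13, SE 0.16, limma adjusted p = 2.57e-05) and Srxn1 (sulfiredoxin, an NRF2 target) from 134, 136 and 94.3 CPM to 297, 399 and 588 CPM (1.77), with treated libraries above mock in each.

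Large protein complexes moved by small amounts, and their counts depended on the fit. Of oxidative phosphorylation genes 51.4% were called, of proteasome genes 38.2% and of cytosolic ribosomal protein genes 46.7%. Over all genes the share was 50.9% (27.8% higher, 23.1% lower). Oxidative phosphorylation genes rose in 34 of 74 cases and fell in 4 (median 0.25), or 26 and 0 without the pair term, 16 and 0 without replicate 2 and 33 and 1 without replicate 3. Ndufb6, a subunit of complex I, rose from 54.4, 50.5 and 52.7 CPM to 111, 155 and 169 CPM (1.43). Proteasome subunit genes rose in 13 of 34 cases with none lower (median 0.17), or 6 and 0 without the pair term and 4 and 0 without replicate 2. Cytosolic ribosomal protein genes fell in 31 of 75 cases and rose in 4 (median -0.16). Rises and falls were 1 and 39 after median centring, 1 and 9 without the pair term, 5 and 18 without replicate 1, 1 and 13 without replicate 2 and 3 and 15 without replicate 3. Rps27l, a p53-induced paralog on the same list, rose from 199.6, 208 and 203 CPM to 303, 325 and 311 CPM (0.62, SE 0.08, limma adjusted p = 0.000835), opposite to the list, and its reads could be shared with its near relatives and their pseudogenes.

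Polycomb targets were of interest to the series, and they had no common direction. Of 23 Hox genes 6 rose and 8 fell (median 0.00), or 4 and 3 for genes of at least 10 CPM, 2 and 9 after median centring, 2 and 2 without the pair term, 2 and 8 without replicate 1 and 3 and 5 without replicate 2. Hoxa5 went from 7.13, 7.83 and 5.07 CPM to 16.4, 14.1 and 13.2 CPM (1.03) and Hoxb2 from 14.4, 19.1 and 20.4 CPM to 9.15, 4.21 and 10.2 CPM (-1.16), each without overlap. Of 30 other developmental targets 9 rose and 5 fell, or 5 and 1 without the pair term and 6 and 2 without replicate 2, led by the homeobox genes Irx3 (1.91) and Msx2 (1.69). Of 24 PRC1 and PRC2 components 4 rose and 6 fell, or 3 and 2 without the pair term and 2 and 3 without replicate 2. The share called was 60.9% of Hox genes, 46.7% of the other targets and 41.7% of these components, against 50.9% of all genes. Ezh2, the methyltransferase of PRC2, fell from 39.7, 57.1 and 35.4 CPM to 19.96, 27.4 and 15.8 CPM (-1.04, SE 0.11, limma adjusted p = 0.000344), while Eed, its partner, rose from 43.9, 48.4 and 46.4 CPM to 82.3, 86.01 and 99.99 CPM (0.93, SE 0.10, limma adjusted p = 0.000404). In all 3 pairs these subunits of the same complex moved in opposite directions.

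Of the enzymes that doxorubicin meets in the cell, Top2b, the topoisomerase II of resting cells, went from 203, 223 and 254 CPM to 169.9, 140.0 and 156 CPM (-0.54, SE 0.11, limma adjusted p = 0.00583), against -3.97 for Top2a; without replicate 2 it was not called (adjusted p = 0.0576). Abcb1b, a P-glycoprotein that pumps the drug out, rose from 16.8, 34.6 and 17.4 CPM to 53.05, 79.6 and 65.8 CPM (1.55, SE 0.14, limma adjusted p = 0.000224), with treated libraries above mock. Its paralog Abcb1a was in the doxorubicin table alone, at 4.74, 13.8 and 10.9 CPM, and reads of the pair could be split between them. Cbr3, a carbonyl reductase, rose by 0.81, a call lost without the pair term (adjusted p = 0.0759) and without replicate 2 (adjusted p = 0.0779). Top1 was not called (0.11, limma adjusted p = 0.354).

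Of 19 measured markers of other cell types 12 rose and 3 fell. Over all genes 27.8% were higher and 23.1% lower. Most of these marker calls were lost without the pair term. Among the rises these were Cd68, Krt18, Nes, Col2a1, Cd34, Eng, Fabp4 and Tnnc1, and among the falls Flt1 and Lpl. The 3 epithelial markers measured rose: Krt19 from 11.3, 23.6 and 5.47 CPM to 72.8, 223 and 85.2 CPM (3.17, SE 0.20, limma adjusted p = 5.44e-05), Esrp2, a splicing factor, by 2.46 and Krt18 by 0.76 (adjusted p = 0.523 without the pair term and 0.12 without replicate 2). Their summed level was 11.0 to 42.4 CPM in mock and 105.6 to 282 CPM after doxorubicin, and Cdh1 and Epcam, which define epithelia, were in neither table, while Cldn4 (5.82, 9.99 and 1.38 CPM in KO dox) and Cldn6 (3.58, 8.78 and 2.96 CPM) were in that of doxorubicin alone. Of 12 endothelial markers 4 were measured, and 3 rose, with Kdr going from 4.07, 7.68 and 2.26 CPM to 24.7, 35.03 and 25.2 CPM (2.47). Flt1, the highest of the list, fell from 136, 122 and 375 CPM to 91.5, 86.5 and 144 CPM (-0.81), and the summed level of the 4 was 165.4 to 397.6 CPM in mock and 163.4 to 203.4 CPM after doxorubicin. Pecam1 and Cdh5 were in neither table. Cd68, a lysosomal protein of macrophages, was at 58.3, 14.9 and 2.42 CPM in mock and 112, 63.6 and 45.4 CPM after doxorubicin, with mock library 3 the lowest and mock library 1 above treated library 3, and was not called without the pair term (adjusted p = 0.108); Ptprc and Csf1r, which define blood cells, were in neither table, and Cd14 was in that of doxorubicin alone, at 18.6, 28 and 23.7 CPM. The other falls were those of Acta1, skeletal muscle actin, from 81.9, 171 and 25.9 CPM to 10.2, 26.1 and 4.34 CPM (-2.63), and of Lpl, the lipase of adipocytes, at -0.59. The groups of Lpl overlapped, and its call was lost without the pair term (limma adjusted p = 0.194). It was also lost without replicate 1 (0.0745), without replicate 3 (0.0966) and in a fit of all 12 libraries (0.0637). Among the largest changes below, Perp, Dsp and Sbsn are also expressed in epithelia. Whether other cells took part in these values was not tested.

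The largest rises were not confined to the lists. Sbsn (suprabasin, a protein of epidermis) went from 2.1, 3.64 and 2.76 CPM to 99.8, 109 and 278 CPM (5.27, SE 0.28, limma adjusted p = 2.87e-05) and Slc4a11, a membrane transporter, from 4.14, 3.13 and 4 CPM to 130.2, 182 and 236 CPM (5.24, SE 0.18, limma adjusted p = 1.62e-05). Sncg (gamma-synuclein) went from 2.99, 1.97 and 3.04 CPM to 91.5, 69.8 and 91.6 CPM (4.54). All 3 were low in every mock library and far above that level in every treated library. Mmp15 (a membrane metalloprotease), Vnn1 (vanin, a pantetheinase), Icam1 (a leukocyte adhesion receptor) and Dsp (desmoplakin) rose by 4.46, 4.18, 4.03 and 3.69. Man2b1, lysosomal mannosidase, was abundant before as well and went from 138, 105 and 139.9 CPM to 1187, 1414 and 2186 CPM (3.59). Hyal1, Scube3, Fgfbp3, Procr and Abcb9 rose by 3.33 to 3.52.

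Of the 15 largest falls 9 were members of the cell cycle lists, which held 1.45% of tested genes. Trib3 and Myh11, described above, were among the others. The lists were written with earlier results of these data known, so this overlap is a description and no test. Aspn (asporin, a small matrix proteoglycan) went from 173, 46.2 and 452 CPM to 8.19, 2.26 and 28.04 CPM (-4.02, SE 0.12, limma adjusted p = 1.3e-05). Its level differed several-fold between numbers within each treatment, the groups were apart, and each pair fell. Itga11, the collagen receptor integrin alpha 11, went from 329, 202 and 496 CPM to 26.2, 27.4 and 50.02 CPM (-3.24), and Kif21b, a kinesin, from 103, 66.6 and 87.5 CPM to 18.9, 5.79 and 4.19 CPM (-3.27). Pclaf, a clamp-binding replication factor, fell by 3.87, Racgap1 by 3.38 and Birc5 (survivin) by 3.20. The imprinted noncoding RNA H19 went from 2320, 413 and 745 CPM to 460.5, 57.2 and 104 CPM (-2.66), with number 1 far above the others in both groups and mock library 2 below treated library 1, and it was not called without the pair term (adjusted p = 0.0513).

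**Figure D4:**
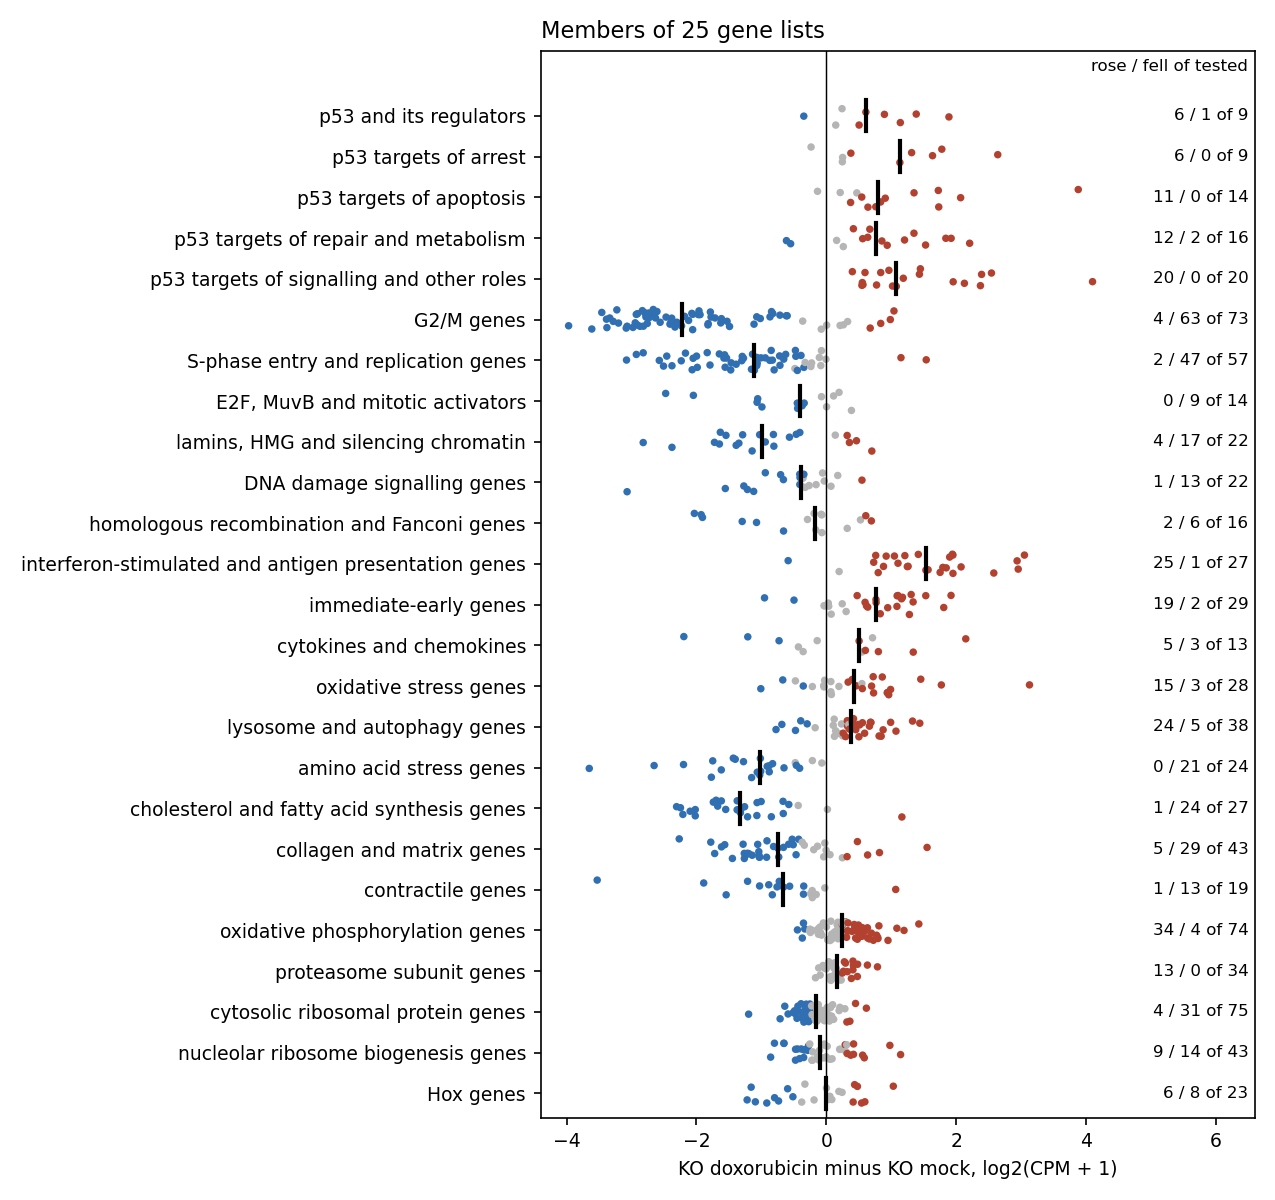
Change of each tested member (horizontal axis, KO dox minus KO mock, log2(CPM + 1)) of 25 gene lists. Red points rose and blue points fell in limma's test, grey points were not called, black bars are list medians, and the counts at the right are rose / fell of tested; G2/M genes have a median of -2.23 and interferon-stimulated genes of 1.53.

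Genes in a single table add to the picture without a measured change, because the other treatment gives no value for them. Of the 356 genes in the mock table alone, those with the highest KO mock levels were mostly mitotic: Kif11 (the spindle motor Eg5) was at 47.7, 79.5 and 43.2 CPM in the 3 KO mock libraries, Ccnb2 at 33.2, 51 and 30.2 CPM and Dlgap5 at 30.6, 49 and 30 CPM. Elastin (Eln) was at 37.5, 20.1 and 40.9 CPM. Of the 833 genes in the doxorubicin table alone, St14 (matriptase, a membrane protease) was the highest in KO dox at 101, 153 and 239 CPM, followed by the matrix protein Matn4 at 65.8, 80 and 228 CPM. Ucp2, a mitochondrial carrier, was at 196, 166 and 3.25 CPM, so that library 3 stood apart from the others. Absence from a table gives no level for either genotype there.

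The same change was then compared between genotypes. Over the 10290 genes, KO and WT responses correlated at r = 0.923 (Spearman 0.913, across genes, which are not independent, with libraries of the 2 genotypes sharing tables), and 5158 of the 5237 genes called in KO had the same sign in WT. The test of the difference itself, over all 12 libraries with a term for each genotype and number, left every one of 10292 genes uncalled by limma (0 genes, 0%). Unadjusted, 1228 had a p under 0.05, and the smallest adjusted p was 0.387. Libraries of KO and WT with the same number and treatment also deviated together (r = 0.668 to 0.856). A fit with a further term for each treatment and number, chosen after the data were seen and with 2 residual degrees of freedom, called 1332 genes (12.9%), 441 (4.28%) with the higher response in KO and 891 (8.66%) with the lower, and 636 without replicate 1. The values below are therefore given under both fits.

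G2/M genes had the lower median in KO: it was -2.23 in KO and -1.50 in WT. Of 73, 37 were lower by the fit with both terms and 0 by the other. Listed genes were above 2 CPM in every WT library, a bound that KO libraries did not have. Members with large falls in WT could thus be left out, and 26 G2/M and 12 replication genes were in the mock table alone. How far this moved the medians was not tested. In WT, pair 2 had the smallest fall: the median changes were -1.76, -0.89 and -1.61 in WT pairs 1, 2 and 3, against -2.25, -2.34 and -2.08 in KO, and pair 2 had the highest of the 3 WT values in 50 of 73 genes. Plk1, for example, changed by -2.83, -0.64 and -2.09 in the WT pairs. Without replicate 2 the fit with both terms called 24 lower, and 36 and 52 without replicates 1 and 3, with 1 residual degree of freedom each. Over all genes its smallest limma adjusted p was 6.95e-48 without replicate 3, against 0.0015 with all replicates. Counts of this fit without replicate 3, here and below, are therefore in doubt. Ccnb1 fell by 2.12 in KO against -0.56 in WT, a difference of -1.56 (SE 0.35, limma adjusted p = 0.387, and 0.0015 with pair terms of both kinds). Cdc20 had -1.96 and -0.59, a difference of -1.37 (SE 0.32, limma adjusted p = 0.387, and 0.00466 with pair terms of both kinds). Plk1 had a difference of -1.48 (SE 0.50, limma adjusted p = 0.389, and 0.00547 with pair terms of both kinds), and Mcm2, the helicase subunit, had -2.05 in KO and -2.05 in WT. Replication genes had medians of -1.11 and -0.75, with 18 of 57 lower by the fit with both terms (16, 15 and 27 without replicates 1, 2 and 3). Interferon-stimulated genes had the higher median in KO, at 1.53 against 0.98, but not in every pair. The median changes were 1.30, 1.79 and 1.24 in KO pairs 1, 2 and 3, against -0.03, 0.83 and 1.39 in WT. The gap was thus widest in pair 1, and in pair 3 the WT median was the higher. Of 27 genes, 8 were higher by the fit with both terms, a count of 1, 4 and 21 without replicates 1, 2 and 3. Here the bound on WT levels could leave out members that were low in WT mock, and 10 were in the doxorubicin table alone. Its effect on these medians was not tested either. Isg15 rose by 2.96 in KO and 1.22 in WT, a difference of 1.73 (SE 0.88, limma adjusted p = 0.456, and 0.0422 with pair terms of both kinds). Its level in WT mock was 70.4 ± 91.1 CPM (SD, n = 3), a spread above its mean. Ifit1 was at 1.75 in KO and -0.13 in WT, with a difference of 1.89 (SE 0.70, limma adjusted p = 0.397, and 0.0205 with pair terms of both kinds). Contractile genes had the higher median in KO, at -0.66 against -1.04, with 7 of 19 higher by the fit with both terms (5, 11 and 9 without replicates 1, 2 and 3) and 0 by the other.

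p53 targets had medians of the same sign in both genotypes. The arrest targets had a median of 1.13 in KO and 1.13 in WT, and the apoptosis targets 0.80 and 1.07. Cdkn1a rose by 1.78 in KO and 1.15 in WT, a difference of 0.63 (SE 0.13, limma adjusted p = 0.387, and 0.00497 with pair terms of both kinds). Its untreated level was 315 ± 38.1 CPM in KO and 566 ± 54.7 CPM in WT, and its treated level 1078 ± 21.9 CPM in KO and 1260 ± 175 CPM in WT (SD, n = 3 each), so the untreated mean was lower in KO and the treated mean was not above that of WT. Sfn had the opposite sign of difference, at -1.17 (SE 0.30, limma adjusted p = 0.387, and 0.00497 with pair terms of both kinds). Mdm2 rose by 1.89 and 1.79, with a difference of 0.10 (SE 0.17, limma adjusted p = 0.813, and 0.461 with pair terms of both kinds).

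**Figure D5:**
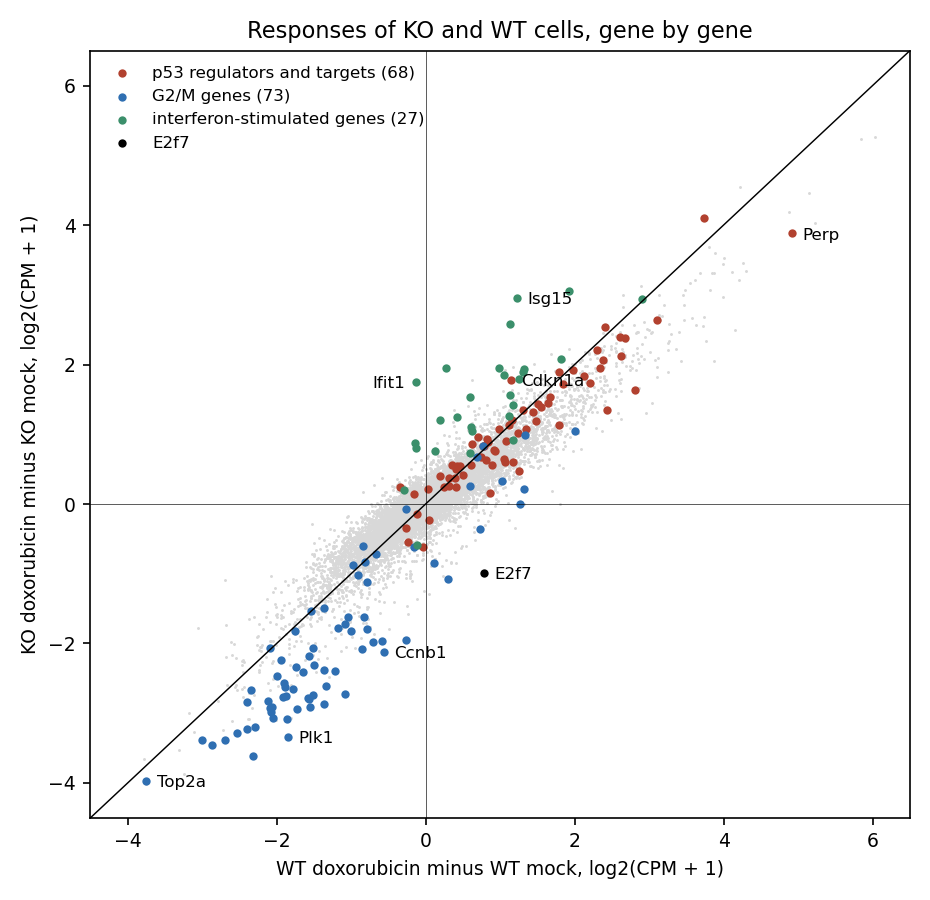
Response of each tested gene in KO (vertical axis) against WT (horizontal axis), both log2(CPM + 1) in doxorubicin minus mock. The diagonal marks equal responses, red points are p53 regulators and targets, blue points G2/M genes, most of which lie below the diagonal, green points interferon-stimulated genes, many of which lie above it, and the black point is E2f7, which fell in KO and rose in WT.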

How the data were processed

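RNA of 12 fibroblast libraries was sequenced from a stranded mRNA kit, per the labels' protocols. Per the submitters' processing notes, the tools were TopHat2 2.0.6, HTSeq and edgeR and the build NCBIM37, with no roles. The authors deposited CPM per gene, 1 table per treatment. Genes in both tables (10292) were compared by limma (version 3.58.1, R 4.3.3; lmFit, eBayes with trend) on log2(CPM + 1), for genes with a mean of at least 1 CPM, with Benjamini-Hochberg adjustment at 0.05. The main fit held the 6 KO libraries and the replicate number as a block (pairing taken from the shared numbers and the correlations given above; 2 residual degrees of freedom). The comparison with WT held 12 libraries and a block per genotype and number. The scripts were tested on simulated data. Count tests were not run, since the unit was CPM. The 50 gene lists and their members were chosen with earlier results of these data known. Named genes were a fixed set, the 15 largest called changes each way with groups apart and pairs agreeing, and the 4 largest in each list (the 6 largest called differences from WT each way gave none); others were named after their values were seen. Names were matched to RefSeq (GRCm38.p6): 9833 as symbols, 1216 as synonyms, 432 not. Motifs were searched in 250 bases before and 50 after each start. Some list members are not reported here.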

Additional observations from a re-analysis of the deposited data

Results flagged for a closer look

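For 97 genes (0.943%) every KO pair moved one way and every WT pair the other; among genes named here these were E2f7, Foxc2, Ccn1 and Lipe. E2f7, a repressor of E2F targets, was at 12.9, 23.8 and 13.4 CPM in KO mock and 2.43, 17.6 and 8.92 CPM in KO dox and at 12.5 ± 5.07 and 26.7 ± 21.8 CPM in WT mock and WT dox (SD, n = 3 each). Its response was -0.99 in KO and 0.79 in WT, and the test of the difference gave -1.78 (SE 0.47, limma adjusted p = 0.387, and 0.00244 with pair terms of both kinds). The KO call was lost without the pair term (adjusted p = 0.228) and without replicate 1 (adjusted p = 0.0517). Foxc2, a forkhead factor, differed by 0.71 (SE 0.16, limma adjusted p = 0.387, and 0.00934 with pair terms of both kinds), and Ccn1, a matricellular immediate-early gene, by 0.67 (SE 0.17, limma adjusted p = 0.387, and 0.00466 with pair terms of both kinds). Lipe, hormone-sensitive lipase, differed by 0.38 (SE 0.19, limma adjusted p = 0.454, and 0.18 with pair terms of both kinds). In KO alone the latter 3 genes were not called.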

How the results depend on the processing

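The number of called KO genes, 5237, was 3191 without the replicate block (1830 higher, 1361 lower), and 3052 to 4607 when 1 replicate was left out (1688 to 2627 higher, 1364 to 2111 lower), lowest without replicate 2. It stayed within 1.5 times of 5237 with a pseudocount of 0.25 (5218) or 4 (5249), no filter (5240), a mean of at least 10 CPM (4701), quantile normalization (5298), median centring (5342) and a fit of all 12 libraries (5027). The difference from WT was called for 0 genes in each of these and without its block (468 at an unadjusted p under 0.05), and for 1332 with blocks of both kinds (636, 1014 and 1165 without replicates 1, 2 and 3), alternatives added after the data were seen. Of 268 genes checked, 46 lost their call without the replicate block and 28 without replicate 2. Tubb3, not called, changed sign without replicate 1 (0.10) and was called without replicate 3 (-0.38). List medians near 0 that changed sign were those of PRC1 and PRC2 components (0.04 at 10 CPM, 0.05 without replicate 3) and end joining genes (-0.24 at 10 CPM, -0.10 without replicate 2). The edgeR and DESeq2 alternatives were not run because the tables hold CPM. Genes at or under 2 CPM in a WT library were not analysed here.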
